A study of Mus musculus with 8 samples.

Results

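The genes described here encode the enzymes and regulators of cholesterol and fatty acid synthesis, measured in dorsal skin of Balb/c mice in a contact dermatitis model used for atopic dermatitis. The members were chosen by name and function, as 29 genes of the 2 pathways, and the brightest probe set over the 8 arrays stood for each gene. Of the 29 genes, 28 had a probe set annotated to that gene alone and were tested, among 12420 genes tested in all. Acat2 was not listed as the only symbol of a probe set and was not analysed here. The 28 genes had 64 probe sets, of which 57 passed the filter on low signals.

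The study used 3 groups. Sham skin (n = 2) received no DNCB and no HY209 per the titles and source names, although the protocol fields of these samples carry the text of the DNCB model, which bears on each comparison against sham. The DNCB group (n = 3) received the contact sensitizer 1-chloro-2,4-dinitrobenzene (DNCB) on the back for 15 days, with vehicle in the last 7 days. The DNCB+HY209 group (n = 3) received the same DNCB course with a PEG gel holding 5% HY209, a compound known to activate GPCR19, a membrane receptor for bile acids, in place of vehicle. All groups were of the Balb/c strain, and the age and sex of the mice were not given in the sources used here. Whether each array came from its own mouse is not stated, and the p-values then reflect only how far these samples differ within a group, which may be technical.

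Cholesterol is built from acetyl-CoA through mevalonate, farnesyl pyrophosphate and squalene, and fatty acids are built from the same acetyl-CoA by acetyl-CoA carboxylase and fatty acid synthase. When membrane sterol falls, INSIG proteins release the SCAP-SREBP complex, the SREBP transcription factor is cut free in the Golgi, and it raises nearly every gene of the sterol pathway at once. In skin these lipids go into the lamellae of the stratum corneum, into sebum and into hair follicle lipids, so whole-skin RNA carries the pathway from epidermis, sebaceous gland, follicle and fat together. SREBP acts at sterol regulatory elements, commonly with the factors NF-Y and Sp1 bound nearby.

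The sequences just upstream of Hmgcs1, Insig1 and Ebp are shown because these were, of the members with a promoter in the RefSeq table, those with the largest differences relative to error between DNCB and sham. Each is the 250 bases before the annotated start (build GRCm38.p6), 5′ to 3′ on the gene's strand. Capitals mark matches, on either strand, to the sterol regulatory element TCACNCCAC or the NF-Y box CCAAT, which reads ATTGG on the other strand. The sequences come from chr13:119690101-119690350 (plus strand) for Hmgcs1, chr5:28071162-28071411 (plus strand) for Insig1 and chrX:8193513-8193762 (minus strand) for Ebp.
Hmgcs1: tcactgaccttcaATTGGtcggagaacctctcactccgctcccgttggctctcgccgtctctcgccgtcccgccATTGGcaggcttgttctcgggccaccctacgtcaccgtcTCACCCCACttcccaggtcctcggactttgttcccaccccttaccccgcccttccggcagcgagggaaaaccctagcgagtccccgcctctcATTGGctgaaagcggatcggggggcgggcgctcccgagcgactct
Insig1: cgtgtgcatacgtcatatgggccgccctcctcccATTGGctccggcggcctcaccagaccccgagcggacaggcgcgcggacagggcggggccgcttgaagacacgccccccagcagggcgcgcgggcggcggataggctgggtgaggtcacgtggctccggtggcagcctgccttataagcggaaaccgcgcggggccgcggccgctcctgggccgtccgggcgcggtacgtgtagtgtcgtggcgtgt
Ebp: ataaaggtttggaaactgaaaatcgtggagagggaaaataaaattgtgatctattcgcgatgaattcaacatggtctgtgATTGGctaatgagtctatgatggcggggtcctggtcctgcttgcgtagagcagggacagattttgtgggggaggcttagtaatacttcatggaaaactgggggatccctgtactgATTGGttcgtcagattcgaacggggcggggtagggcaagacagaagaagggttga

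Hmgcs1 held 1 match to the sterol element, whose first base lay 137 bases before the start, and 3 NF-Y boxes at 237, 176 and 45 bases. Insig1 held 1 NF-Y box and Ebp held 2. The RefSeq table had 28 promoters for 22 of the 29 genes. The sterol element was found in 1 of these 28 (3.57%), that of Hmgcs1, against 1.05% of all 32851 promoters of the same length. An NF-Y box was found in 19 of 28 (67.9%) against 33.8% of all promoters, and the Sp1 box GGGCGG in 20 of 28 (71.4%) against 32.7%. None of the matches marked in these 3 sequences overlapped another, and a match to these letters is a description of the sequence, not a measured binding site.

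DNCB skin was compared with sham skin to ask whether lipid synthesis genes changed with dermatitis. None of the 28 genes passed the test, by limma with Benjamini-Hochberg adjustment over all 12420 genes, where 1.83% of all genes were called, 1.37% as higher and 0.459% as lower. The largest differences ran in opposite directions within the sterol pathway. Hmgcs1, at the entry of the mevalonate route, and Insig1, which holds SREBP back, had lower signals in DNCB, whereas Ebp, Sqle and Sc5d, which act after squalene is made, had higher means. The directions did not follow the position in the pathway, as 4 of the 6 mevalonate genes lay above 0 and 2 below. Without sham array 2, Sqle differed by 0.35 and Sc5d by -0.02, and without sham array 1 by 1.765 and 1.807. In the brightest probe set, the genes of fatty acid synthesis proper, Fasn, Acaca, Acly and Me1, differed by 0.27 or less on the log2 scale in either direction, and other probe sets of Acly and Me1 reached 0.42 and -0.32. The smallest adjusted p among the members was 0.225, for Hmgcs1.

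Signals of members were above the median of their array on every array for all 28 genes, by at least 0.36 on the log2 scale. The median log2 difference between DNCB and sham was 0.10 for the 28 genes and 0.15 for all genes tested, with differences of the members from -0.65 to 1.26. Of the 28 differences 18 lay above 0 and 10 below it as deposited, but 11 and 17 after quantile normalization, which moved the median of all genes from 0.15 to 5.69e-05 and that of the members to -0.16. Set against the median of all genes, 12 members lay above it and 16 below as deposited, and 11 and 17 after quantile normalization. At an unadjusted p under 0.05, 2 of the 28 genes stood out, Ebp and Hmgcs1, where 16.8% of all genes did so, 12.4% as higher and 4.4% as lower. Arrays of the groups did not overlap for 4 genes with higher and 4 with lower DNCB signals, where 23.3% of all genes had non-overlapping higher and 11.2% non-overlapping lower signals. The 8 genes together compare with 34.4% of all genes in either direction.

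**Figure D1:**
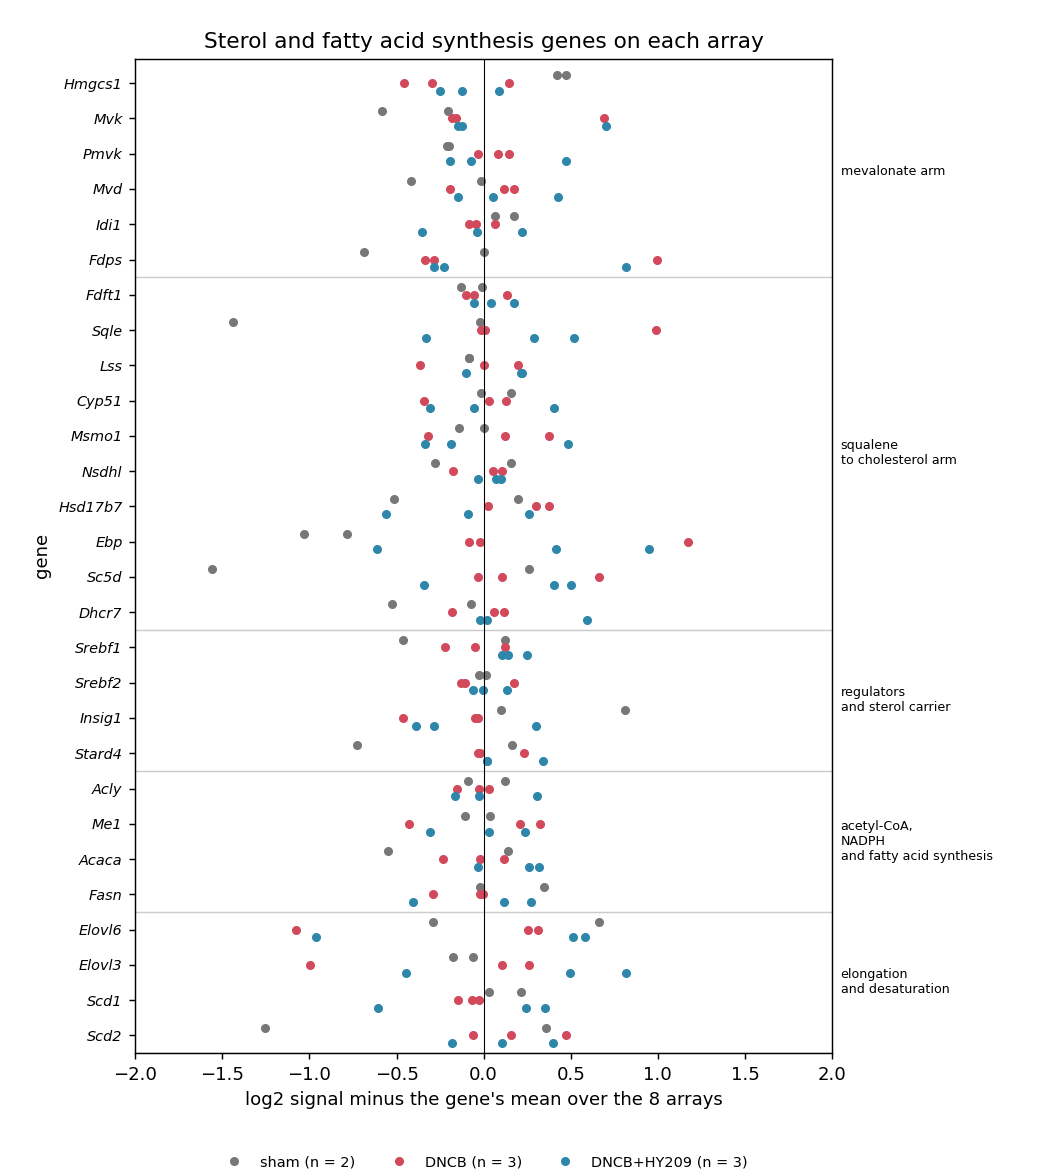
Log2 signal of each of the 28 genes on each array, minus that gene's mean over the 8 arrays, ordered by step of the pathway; points are single arrays, coloured by group. Groups overlap for most genes, both Hmgcs1 sham points lie to the right of all other arrays, and 1 sham point lies far to the left for Sqle, Sc5d and Scd2.

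The mevalonate arm carries acetyl groups to farnesyl pyrophosphate. Hmgcs1, the cytosolic HMG-CoA synthase that makes the substrate of the pathway's rate-limiting reductase, had log2 signals of 10.89 and 10.94 in sham, 10.01, 10.17 and 10.62 in DNCB and 10.56, 10.22 and 10.34 in DNCB+HY209. Both sham arrays lay above all 6 others. The log2 difference between DNCB and sham was -0.65 (SE 0.23, 95% interval -1.18 to -0.12, adjusted p = 0.225 by limma, n = 3 and 2), and it was -0.83 without DNCB array 3 and -0.52 without DNCB array 1.

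Hmgcs1 was read by 5 probe sets, and each of the 5 was lower on every DNCB array than on either sham array. These probe sets read 1 transcript in the same RNA and are not independent. Differences between DNCB and sham of the 4 brighter ones ran from -0.46 to -0.65. The dimmest had log2 signals of 4.70 and 5.35 in sham, 3.18, 3.31 and 3.72 in DNCB and 3.53, 3.40 and 3.41 in DNCB+HY209. It lay above the array median on the sham arrays alone, so it entered the test through the group where it was high. All its DNCB and DNCB+HY209 signals lay below the array medians, so its difference of -1.63 is approximate and no test of it is given.

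**Figure D2:**
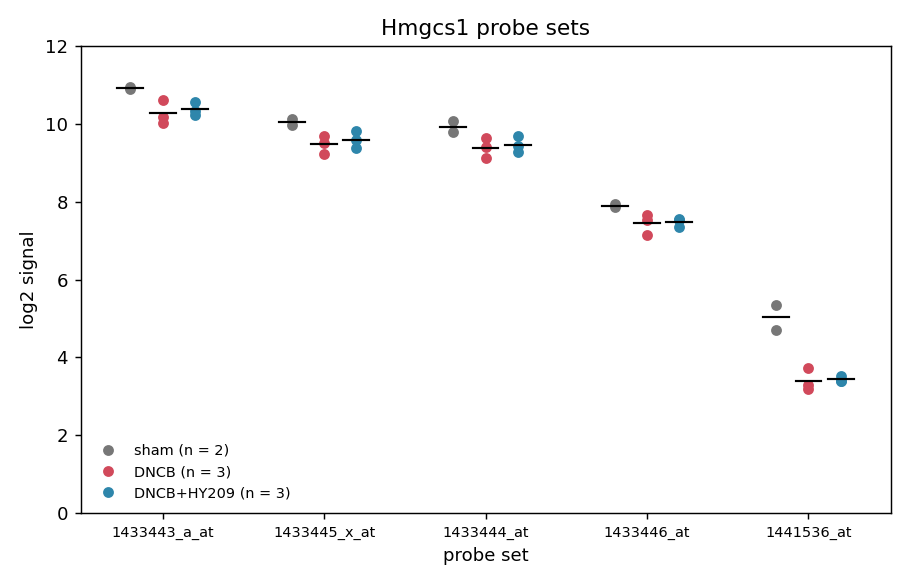
Log2 signal of the 5 Hmgcs1 probe sets on each array (points) with group means (bars), for sham, DNCB and DNCB+HY209. In each probe set both sham points lie above all DNCB points, and the last probe set has signals of 4.70 and 5.35 in sham against 3.18 to 3.72 in DNCB.

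Mvk, Pmvk and Mvd, which phosphorylate mevalonate stepwise and decarboxylate it, had higher means in DNCB by 0.51 (SE 0.36), 0.27 (SE 0.24) and 0.25 (SE 0.25), none past the test. Mvk gave 5.80 and 6.18 in sham, 6.21, 7.08 and 6.23 in DNCB and 6.24, 6.26 and 7.09 in DNCB+HY209. Its DNCB mean was set apart mainly by DNCB array 2, without which the difference was 0.22. It was 0.05 with the spike-in signal of the array (a control RNA added to each sample) as a covariate, and its second probe set differed by -0.30. Spike-in signal was higher on both sham arrays than on all others, so this covariate and the difference from sham cannot be fully told apart. Pmvk, with 6.35 and 6.34 in sham and 6.52, 6.69 and 6.64 in DNCB, did not overlap between these groups, and after quantile normalization its difference was 0.02.

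Idi1, the isopentenyl diphosphate isomerase, differed by -0.14 (SE 0.23), with 8.47 and 8.59 in sham against 8.47, 8.33 and 8.37 in DNCB. Fdps, the farnesyl pyrophosphate synthase, gave 5.65 and 4.96 in sham, 5.30, 6.64 and 5.36 in DNCB and 5.36, 5.41 and 6.46 in DNCB+HY209. A single array in each of the DNCB and DNCB+HY209 groups carried the higher Fdps mean, and the difference of 0.47 (SE 0.48) was 0.03 without DNCB array 2, 0.12 without sham array 2, 0.81 without sham array 1 and -0.39 with the spike-in covariate.

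The squalene arm condenses farnesyl units to squalene and turns squalene into cholesterol. Ebp, the sterol isomerase that shifts a double bond late in the pathway, gave 6.30 and 6.06 in sham, 7.06, 8.26 and 7.00 in DNCB and 6.47, 7.50 and 8.03 in DNCB+HY209. All 6 arrays of DNCB-treated skin lay above both sham arrays. The log2 difference between DNCB and sham was 1.26 (SE 0.50, 95% interval 0.13 to 2.39, adjusted p = 0.261 by limma, n = 3 and 2), the largest of the 28, and it was 0.31 with the spike-in covariate. It was 0.85 without DNCB array 2 and 1.48 without DNCB array 3.

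Sqle, the squalene epoxidase and first oxygen-requiring step, gave 7.51 and 6.09 in sham, 7.52, 8.52 and 7.54 in DNCB and 7.20, 7.82 and 8.05 in DNCB+HY209. Sham array 1 lay level with DNCB arrays 1 and 3, at 7.51 against 7.52 and 7.54, and sham array 2 lay far below them. The difference of 1.06 (SE 0.48, 95% interval -0.02 to 2.13, adjusted p = 0.306) was 0.35 without sham array 2, 1.765 without sham array 1 and 0.20 with the spike-in covariate.

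Sc5d, the sterol C5 desaturase, gave 6.40 and 4.58 in sham against 6.24, 6.80 and 6.11 in DNCB. Its difference of 0.90 (SE 0.50, adjusted p = 0.38) became -0.02 without sham array 2, 1.807 without sham array 1 and 0.12 with the spike-in covariate, and its 3 probe sets ran from -0.25 to 0.90. Hsd17b7, a 3-ketosteroid reductase of the pathway, differed by 0.39 (SE 0.31), and its 3 probe sets past the filter differed by 0.33 to 0.60, but the brightest gave 0.037 without sham array 1 and 0.75 without sham array 2. Dhcr7, which makes cholesterol from a late precursor, differed by 0.30 (SE 0.27), by 0.069 without sham array 2 and by 0.53 without sham array 1.

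The remaining members of this arm lay closer together. Fdft1, the squalene synthase, gave 8.70 and 8.57 in sham and 8.60, 8.65 and 8.84 in DNCB, and its difference of 0.06 (SE 0.21) had a 95% interval of -0.41 to 0.53. Lss, the lanosterol synthase, differed by 0.03 (SE 0.24), Nsdhl, a sterol dehydrogenase, by 0.05 (SE 0.22), Msmo1, the sterol C4 methyl oxidase, by 0.13 (SE 0.31) and Cyp51, the lanosterol demethylase, by -0.13 (SE 0.27). Arrays of DNCB and sham overlapped for each of these 5 genes in the brightest probe set. Another probe set of Lss, at -0.41, was lower in DNCB without overlap. Another of Fdft1 was also lower without overlap, with 4.30 and 4.29 in sham and 3.88, 4.08 and 4.01 in DNCB. These signals lay near or below the array medians, and it passed the filter through the sham arrays, so no size is given for it.

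Among the regulators, Srebf2, which encodes the SREBP of sterol synthesis, gave 6.41 and 6.38 in sham, 6.58, 6.27 and 6.29 in DNCB and 6.53, 6.34 and 6.39 in DNCB+HY209. Its range over the 8 arrays was 0.30, the smallest of the 28, and the difference was -0.01 (SE 0.20, 95% interval -0.47 to 0.44). Its dimmer probe set differed by 0.43. Srebf1, which encodes the SREBP of fatty acid synthesis, gave 7.61 and 8.20 in sham against 7.85, 8.03 and 8.20 in DNCB, a difference of 0.12 (SE 0.24).

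Insig1, itself a target of SREBP, gave 7.37 and 6.66 in sham, 6.10, 6.51 and 6.53 in DNCB and 6.87, 6.28 and 6.17 in DNCB+HY209. Both sham arrays lay above the 3 DNCB arrays. The difference of -0.63 (SE 0.31, 95% interval -1.33 to 0.06, adjusted p = 0.328) was -0.28 without sham array 1 and -0.99 without sham array 2. Stard4, a carrier that moves cholesterol between membranes, differed by 0.34 (SE 0.28), and by -0.11 without sham array 2.

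The genes that supply acetyl-CoA and NADPH and start fatty acid synthesis overlapped between DNCB and sham in each probe set past the filter. Fasn, the fatty acid synthase, gave 8.67 and 8.31 in sham, 8.32, 8.04 and 8.31 in DNCB and 8.60, 7.92 and 8.45 in DNCB+HY209. Its difference was -0.27 (SE 0.27, 95% interval -0.87 to 0.34), and it was -0.084 without sham array 1 and -0.45 without sham array 2. Acaca, the acetyl-CoA carboxylase, differed by 0.16 (SE 0.27), with a sign that turned on the sham array used, at 0.503 without sham array 1 and -0.18 without sham array 2. Acly, the ATP citrate lyase, differed by -0.06 (SE 0.23) and Me1, the malic enzyme that gives NADPH, by 0.07 (SE 0.28), and both changed sign without sham array 2, to 0.042 and -0.00018.

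Among the elongation and desaturation genes, Elovl6, which extends palmitate, gave 8.55 and 9.50 in sham, 9.15, 7.76 and 9.10 in DNCB and 9.35, 7.88 and 9.42 in DNCB+HY209. Its within-group SD of 0.80, pooled over the 3 groups, was the largest of the 28, against a median of 0.30 for the members and 0.29 for all genes tested. The low values fell on DNCB array 2 and DNCB+HY209 array 2, and the difference between DNCB and sham was -0.36 (SE 0.58, 95% interval -1.67 to 0.95). Leaving out sham array 1 gave -0.84 and leaving out sham array 2 gave 0.12. It was 0.096 with DNCB array 2 left out and 0.56 with the spike-in covariate. Its other probe sets differed by -0.68 and by -0.88, the latter without overlap.

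Elovl3, an elongase of very long chains in sebaceous gland and hair follicle, was low on the same 2 arrays. It gave 7.38 and 7.50 in sham, 7.82, 6.56 and 7.66 in DNCB and 8.38, 7.12 and 8.06 in DNCB+HY209, a difference of -0.09 (SE 0.45) between DNCB and sham that was 0.303 without DNCB array 2 and 0.65 with the spike-in covariate. Scd1, the desaturase whose loss in asebia mice leaves stunted sebaceous glands, gave 10.66 and 10.84 in sham, 10.61, 10.48 and 10.56 in DNCB and 10.98, 10.02 and 10.87 in DNCB+HY209. DNCB arrays of Scd1 lay just below both sham arrays, with a difference of -0.20 (SE 0.29).

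Scd2, a second desaturase of the same family, gave 9.78 and 8.17 in sham against 9.36, 9.90 and 9.58 in DNCB. Its difference of 0.64 (SE 0.43) became -0.17 without sham array 2. For Sqle, Sc5d, Scd2 and Stard4 the sham mean thus combined an array level with DNCB skin and a lower one.

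**Figure D3:**
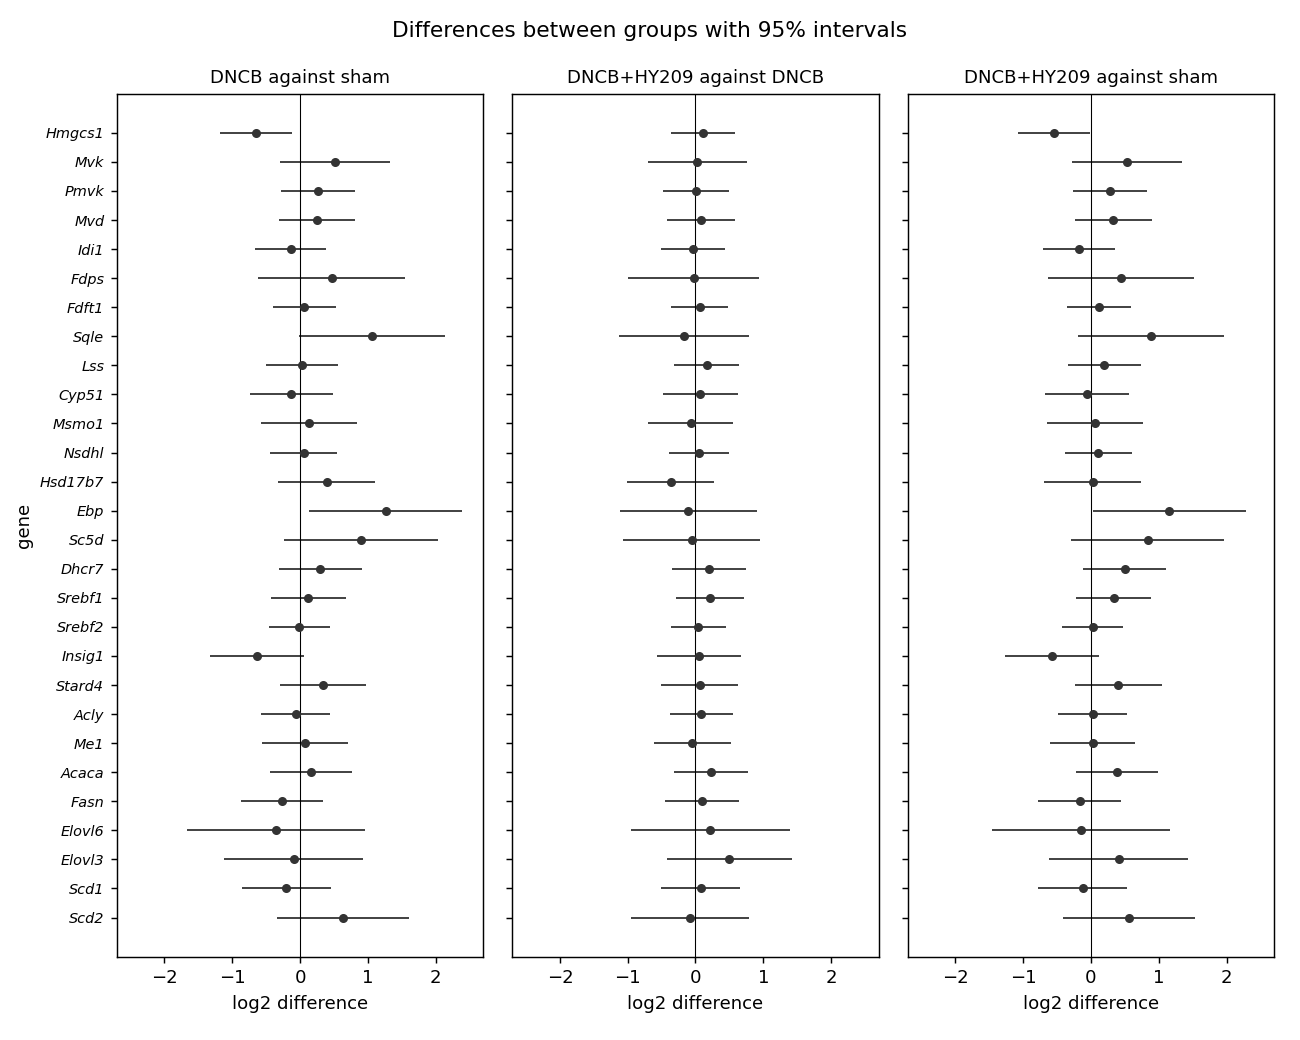
Log2 differences of the 28 genes in the 3 comparisons with 95% intervals from the limma fit of all 8 arrays (bars), in pathway order. In the first panel the intervals of Hmgcs1 and Ebp exclude 0 before adjustment, and in the second panel all 28 intervals include 0.

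The HY209 gel was compared with vehicle in DNCB skin to ask whether it changed these genes. None of the 28 genes passed, and limma called 0% of the 12420 genes, with 161 at an unadjusted p under 0.05 (1.3%) and none of them a member. Groups did not overlap for 4.99% of all genes, 2.83% higher and 2.17% lower, and for 0 of the 28. The median difference was 0.06 for the members and 0.03 for all genes tested, and the members ran from -0.37 for Hsd17b7 to 0.50 for Elovl3. All 28 intervals included 0, and 22 of the 28 lay within 1 log2 unit on both sides, so a doubling or halving of those 22 lay outside their 95% intervals.

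By role, the 6 mevalonate genes differed by -0.04 to 0.11, with Hmgcs1 at 0.11 (SE 0.21, 95% interval -0.37 to 0.58). In the squalene arm the 10 genes differed by -0.37 to 0.20. Hsd17b7, the most negative, gave 8.41, 8.76 and 8.69 in DNCB and 7.82, 8.29 and 8.65 in DNCB+HY209, a difference of -0.37 (SE 0.28, 95% interval -1.003 to 0.271) with overlapping arrays, and -0.15 without DNCB+HY209 array 1. The regulators differed by 0.04 to 0.21, with Srebf1 at 0.21 (SE 0.22).

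For Fasn, Acaca, Acly and Me1 the HY209 differences were 0.10, 0.23, 0.09 and -0.05. Elovl3 had a difference of 0.50 (SE 0.40, 95% interval -0.42 to 1.42) with overlapping arrays. With DNCB array 2 left out it was 0.11, and with array 1 or array 2 of the DNCB+HY209 group left out it was 0.24 or 0.87. Scd1, Scd2 and Elovl6 differed by 0.08, -0.08 and 0.22, with SEs of 0.26, 0.38 and 0.52. The signs in this comparison were not stable: 16 of the 28 changed when arrays were weighted by their estimated quality, with Elovl6 at -0.91, Scd1 at -0.46 and Elovl3 at -0.37.

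DNCB+HY209 skin was also set against sham skin, using the same sham arrays as the first comparison, so the values are given side by side and not as a second line of evidence. None of the 28 genes passed, where 0.403% of all genes were called by limma, 0.266% as higher and 0.137% as lower. Hmgcs1 differed by -0.54 (SE 0.23, adjusted p = 0.25), Ebp by 1.16 (SE 0.50, adjusted p = 0.252), Sqle by 0.89 (SE 0.48), Insig1 by -0.58 (SE 0.31) and Dhcr7 by 0.50 (SE 0.27). Without sham array 2, Sqle differed by 0.18, Insig1 by -0.93 and Dhcr7 by 0.27, and without sham array 1 Sqle differed by 1.596 and Insig1 by -0.22. Without DNCB+HY209 array 3 Dhcr7 differed by 0.299. With the spike-in covariate Ebp differed by 0.19 and Sqle by 0.013. Both sham arrays of Hmgcs1 lay above the 3 DNCB+HY209 arrays, and those of Ebp, Mvk, Pmvk and Dhcr7 below them. Non-overlapping genes were thus 4 higher and 1 lower of the 28, where 29.1% of all genes were non-overlapping higher and 12.2% lower, or 41.4% in either direction. The median difference was 0.16 for the members and 0.20 for all genes, and -0.12 and 0.02 after quantile normalization.

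No related gene outside the 29 passed in any of the 3 comparisons. An unadjusted p under 0.05 by limma between DNCB and sham was found for 16.8% of all genes. It was found for 4 of 8 LXR and sterol export genes and 4 of 13 lipogenesis and triglyceride genes. The counts were 2 of 13 for further elongation and desaturation genes and 0 of 9 for other sterol pathway genes. Of the other sterol synthesis and SREBP pathway genes, 9 of 14 were tested, with a median difference of 0.09 between DNCB and sham. The largest relative to error were Mbtps2, a protease that releases SREBP, at 0.81 (SE 0.41, adjusted p = 0.34), and Scap, the SREBP escort, at 0.62 (SE 0.33, adjusted p = 0.361). With HY209 these were Acat1, a mitochondrial thiolase, at 0.35 (SE 0.26) and Mbtps1, the other SREBP protease, at 0.19 (SE 0.23). Between DNCB+HY209 and sham, Mbtps2 differed by 0.87 (SE 0.41) and Scap by 0.56 (SE 0.33). Mbtps2 and Scap had their highest DNCB values on DNCB array 2, as Ebp and Sqle did.

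Of the LXR and sterol export genes, 8 of 10 were tested. Npc2, which hands cholesterol out of lysosomes, gave 8.99 and 8.80 in sham, 9.97, 10.32 and 9.93 in DNCB and 9.64, 9.996 and 10.26 in DNCB+HY209. Both sham arrays lay below all 6 others. Its difference between DNCB and sham was 1.18 (SE 0.25) at an adjusted p = 0.0557, outside the threshold, and between DNCB+HY209 and sham 1.07 (SE 0.25, adjusted p = 0.113). Mylip, an LXR target that degrades lipoprotein receptors, differed by -0.58 (SE 0.23, adjusted p = 0.253) and, with HY209 against DNCB, by 0.22 (SE 0.20). Abcg1 and Abca1, on the same list, had higher means in DNCB than in sham, by 0.66 (SE 0.29) and 0.56 (SE 0.27). Of the 8 differences between DNCB and sham, 5 lay above 0 and 3 below it. Nr1h3, which encodes an LXR, differed by 0.12 (SE 0.19) with HY209, and Apoe by -0.71 (SE 0.27, adjusted p = 0.223) between DNCB+HY209 and sham.

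Of 15 further elongation and desaturation genes 13 were tested. Elovl7, an elongase of long saturated chains, gave 7.40 and 7.99 in sham, 8.91, 9.53 and 9.14 in DNCB and 8.61, 9.39 and 9.76 in DNCB+HY209, a difference of 1.50 between DNCB and sham (SE 0.37, adjusted p = 0.092). Scd3, a desaturase of the sebaceous gland, gave 5.11 and 6.40 in sham, 4.27, 4.61 and 4.72 in DNCB and 5.31, 4.47 and 5.45 in DNCB+HY209, a difference of -1.22 (SE 0.41, adjusted p = 0.2). DNCB and sham arrays did not overlap for either gene, and neither was called. Elovl7 differed by 1.56 (SE 0.37, adjusted p = 0.118) between DNCB+HY209 and sham. Fads3 differed by -0.56 (SE 0.17, adjusted p = 1) with HY209 and by -0.60 (SE 0.19, adjusted p = 0.179) between DNCB+HY209 and sham, with its DNCB+HY209 mean of 4.42 close to the array medians, so that the size of this difference is uncertain.

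Of 14 lipogenesis and triglyceride genes 13 were tested. Pnpla3, a lipid droplet protein induced by SREBP, gave 5.78 and 5.85 in sham, 5.07, 5.01 and 5.29 in DNCB and 5.00, 5.01 and 5.12 in DNCB+HY209, a difference of -0.69 (SE 0.18, adjusted p = 0.109). Pgd, an NADPH-making enzyme of the pentose phosphate path, was 0.72 higher (SE 0.21, adjusted p = 0.157) in DNCB than in sham, with no overlap. Between DNCB+HY209 and sham these 2 genes differed by -0.77 (SE 0.18) and 0.72 (SE 0.21). With HY209, Acss2, the acetyl-CoA synthetase of the cytosol, differed by 0.33 (SE 0.21) and Gpam by 0.24 (SE 0.22).

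Arrays differed in measures other than the groups, and single members moved with some of them. The mean log2 signal of 7 bacterial spike-in probe sets was 11.35 and 12.01 in sham, 11.09, 9.67 and 11.21 in DNCB and 11.26, 10.36 and 10.30 in DNCB+HY209. In this signal both sham arrays lay above all others. The covariate fits therefore cannot fully tell its part from that of DNCB in the comparisons against sham. Of the 28 members, 16 had their highest DNCB value on DNCB array 2, the array of lowest spike-in signal, and 18 had their highest DNCB+HY209 value on array 3. DNCB+HY209 array 2, with nearly the same spike-in signal as array 3, held the highest value of 0 members and the lowest of 18. Within groups, the correlation of single members with this signal ran from -0.927 for Ebp to 0.817 for Elovl3. Ebp and Sqle ran opposite to the spike-in signal, with the highest values of both on DNCB array 2 and the lowest on sham array 2, where spike-in signal was lowest and highest. With the spike-in covariate 10 of the 28 differences between DNCB and sham changed sign. Gapdh signal at the 3′ end over that at the 5′ end, a measure of RNA integrity, ran from 2.10 to 7.35, highest on DNCB array 3, where 5 of the 28 members had their highest DNCB value. The part of these measures in the differences of single genes was not tested beyond the covariate fits given here.

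**Figure D4:**
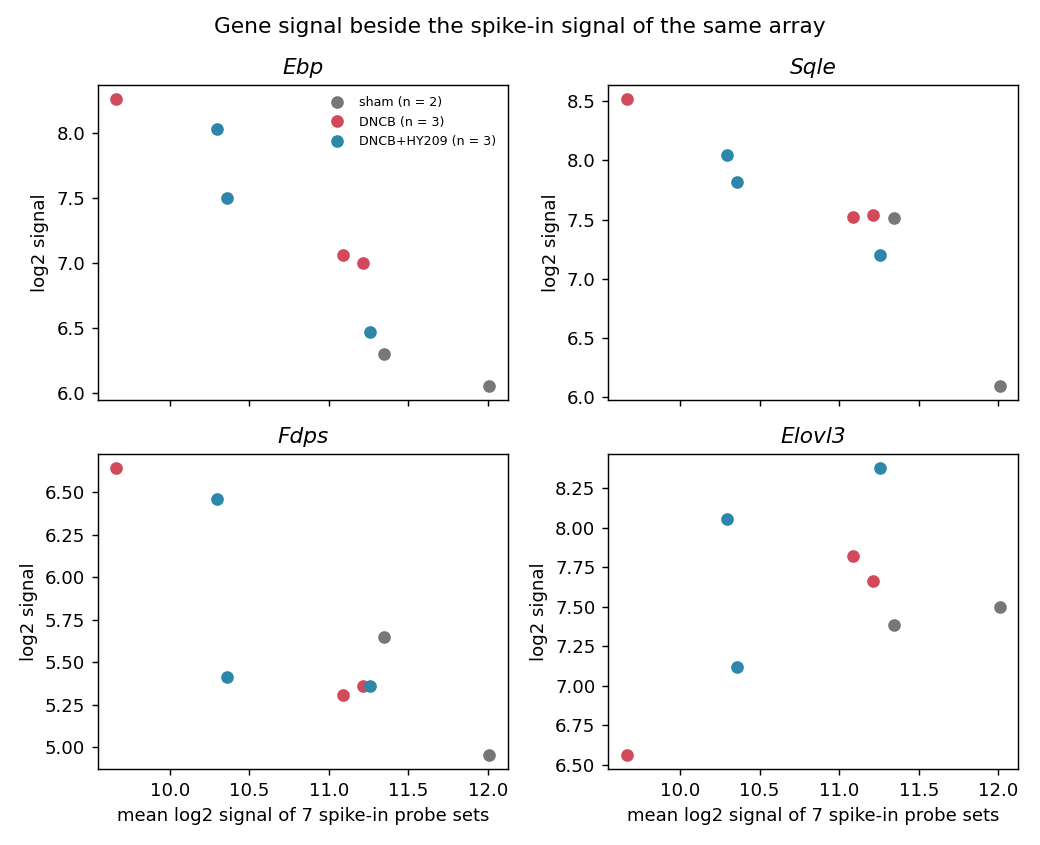
Log2 signal of Ebp, Sqle, Fdps and Elovl3 on each array (points, coloured by group) against the mean log2 signal of the 7 spike-in probe sets of that array. Ebp and Sqle are highest at the lowest spike-in signal (9.67, DNCB array 2) and lowest at the highest (12.01, sham array 2), whereas Elovl3 is lowest at the lowest spike-in signal.

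Markers of cell types that use these lipids also varied between arrays. In bulk skin, fewer cells of a type and less RNA per cell cannot be told apart. Of 14 sebaceous gland markers 8 were tested and none passed; their mean log2 signal ran from 6.18 to 7.14 in sham, 6.30 to 6.70 in DNCB and 6.40 to 7.30 in DNCB+HY209, with Scd3 as above, Far2, which makes fatty alcohols for wax, at 1.02 (SE 0.47) between DNCB and sham and the duct keratin Krt79 at 0.55 (SE 0.25) with HY209. Of 12 adipocyte markers 7 were tested and none passed. Their mean ran from 7.81 to 8.44 in sham, 6.30 to 7.72 in DNCB and 6.53 to 7.16 in DNCB+HY209, so both sham arrays were highest. Between DNCB and sham, Adipoq (adiponectin) differed by -2.53 (SE 0.77, adjusted p = 0.16) and Retn (resistin) by -1.77 (SE 0.42, adjusted p = 0.0798). Adipoq gave 8.13 and 6.76 in sham and 6.08, 5.22 and 3.43 in DNCB. Its signal on DNCB array 3 lay below the array median, so the size is approximate.

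Of 7 hyperproliferative keratinocyte genes 6 were past the threshold with higher DNCB signals, namely Krt6b, Krt16, Sprr1b, S100a9, S100a8 and Krt6a. Krt16, S100a8 and Krt6a rose by 3.73 to 7.65 (adjusted p from 0.000431 to 0.0295 by limma). The mean of the 7 ran from 5.57 to 6.11 in sham and 10.96 to 12.30 in DNCB. Sham signals were 4.52 and 2.82 for Sprr1b, 3.32 and 4.28 for S100a9 and 4.14 and 5.99 for Krt6b. Some of these lay near or below the sham array medians of 4.18 and 4.22. Krt6b, Sprr1b and S100a9 passed the filter on low signals only through arrays of DNCB-treated skin. No size or test is therefore given for these genes, and they are not counted as calls. Of 10 markers of general keratinocytes 9 were tested and none passed, with Krt1 at 1.92 (SE 0.52) and Krt14 at 1.24 (SE 0.40). Of 19 hair follicle markers 18 were tested and none passed, with means of 6.55 to 8.99 in sham, 5.15 to 7.35 in DNCB and 6.04 to 8.28 in DNCB+HY209, and Krt86 and Krt34, both hair keratins, as the largest relative to error. Krt34 gave 9.78 and 5.85 in sham and 4.07, 4.31 and 4.87 in DNCB, and Krt86 gave 8.61 and 5.00 in sham and 2.99, 3.30 and 3.71 in DNCB. Sham array 1 carried much of the sham mean of both, and the DNCB signals of Krt86 lay below the array medians and those of Krt34 near them, so no size is given for these differences. All 12 skeletal muscle markers were tested and 1 rose, Myh2, by 4.45 (SE 0.48, adjusted p = 0.00639). Of 8 fibroblast markers 7 were tested and none passed, with 5 differences above 0 and 2 below between DNCB and sham (median 0.27), from Dcn at -0.69 (SE 0.42) and Col1a2 at -0.62 (SE 0.37) to Thy1 at 0.79 (SE 0.44) and Pdgfra at 1.24 (SE 0.59). With HY209 against DNCB all 7 lay below 0, with a median of -1.005, the collagen genes Col3a1 at -1.08 (SE 0.34) and Col1a2 at -0.97 (SE 0.33) being the largest relative to error. Of 10 macrophage markers 9 were tested and none passed, with C1qb at 1.14 (SE 0.31) and Cd14 at 1.62 (SE 0.46) between DNCB and sham, and C1qb at -0.76 (SE 0.28) and Csf1r at -0.68 (SE 0.36) with HY209 against DNCB. With HY209 against DNCB, all 18 follicle markers lay above 0 (median 0.89, median SE 0.89). All 7 hyperproliferative genes lay below it (median -0.55, median SE 0.56). Groups overlapped for each of these genes, and none was called. Of the 9 general keratinocyte markers 8 lay below 0 and 1 above, and of the 12 muscle markers 10 lay above and 2 below. The part of these cell types in the signals of the lipid genes was not tested.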

How the data were processed

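The authors deposited 1 log2 signal for each probe set and array; the log2 scale was read from the range of the values. RNA was amplified from the 3′ end and biotin-labelled, per the labels' protocols. Affymetrix Expression Console and MAS5 appear in the submitters' processing notes; no source used here gives the scaling between arrays. The table held more probe sets than the array type named in the labels, and the annotation given for its platform was used. Of 45101 probe sets, 64 were controls, 34945 had 1 gene symbol in the platform annotation, 932 several and 9160 none. Probe sets above their array median on at least 2 of 8 arrays were kept, with the brightest per gene (12420 genes). Groups were compared in 1 fit of all 8 arrays with limma 3.58.1 in R 4.3.3 (lmFit, eBayes with an intensity trend, two-sided, Benjamini-Hochberg over all genes, threshold 0.05). SE is moderated, and intervals are the 95% intervals of that fit, not adjusted. The code was tested on simulated data with known changes. Array number limits the precision.

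Members passing the test were to be given in full, and, with none, at least 2 per arm by size of moderated t with every array; from each other list, the genes called or the 2 largest by moderated t. For keratinocyte, follicle and muscle markers, single genes are printed for DNCB against sham alone. The members and lists were chosen with earlier results of these data known. Replicate numbers were not taken as pairs: deviations of same-numbered DNCB and DNCB+HY209 arrays correlated with r from -0.603 to 0.276. Alternatives were other scaling, filters, probe set rules, variance models, covariates, a replicate block and each array left out. Promoter sequences are from RefSeq (GRCm38.p6).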

Additional observations from a re-analysis of the deposited data

How the results depend on the processing

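With 2 or 3 arrays a group, the 95% intervals of the members had a median half-width of 0.62 on the log2 scale for DNCB against sham and 0.56 for DNCB+HY209 against DNCB. No member was called under any alternative run with 1 value per gene. With every probe set as a feature, 1 of the 57 probe sets of members was past the threshold for DNCB against sham, where 236 of 24675 were. It was the dimmest of Hmgcs1, which passed the filter through the sham arrays alone, and it is not counted as a call. With the replicate block no member was called.

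After quantile normalization the median difference of the members was -0.16 for DNCB against sham and -0.12 for DNCB+HY209 against sham. A change of sign is given here for differences larger than their SE. Leaving out 1 array gave, for DNCB against sham, Sc5d from -0.015 to 1.807, Scd2 from -0.1685 to 1.445 and Stard4 from -0.1052 to 0.7865. For DNCB+HY209 against sham it gave Sc5d from -0.074 to 1.748, Scd2 from -0.2507 to 1.363 and Stard4 from -0.039 to 0.8524. The negative value was the one without sham array 2 in each case. Pmvk turned to -0.022 for DNCB+HY209 against sham after quantile normalization, and Elovl3 to -0.3658 for DNCB+HY209 against DNCB with array weights, whose estimation raised a convergence warning. The causes were not tested.

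Counts over all genes were less stable. For DNCB against sham, 227 genes were called, 35 with the replicate block, 16 with the spike-in covariate and 452 with the Gapdh covariate, and 15 to 352 without 1 array: 40 and 15 without sham arrays 1 and 2, 31 and 30 without DNCB arrays 1 and 2, and 352 and 66 without DNCB+HY209 arrays 1 and 2. For DNCB+HY209 against sham it was 50, 97 after quantile normalization, 24 with the mean of probe sets, 744 with array weights, 16 with only the groups compared, 12 with the replicate block, 8 with the spike-in covariate, and 9 to 287 without 1 array: 9 without either sham array, 18 and 32 without DNCB arrays 1 and 3, and 287, 9 and 12 without DNCB+HY209 arrays 1, 2 and 3.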
